A study of Mus musculus with 36 samples.

Results

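A set of 9 genes that mark endothelial cells was followed through RNA-seq libraries of 3 cell populations sorted from mouse skeletal muscle. The genes are Pecam1, Flt1, Kdr, Tek, Tie1, Cldn5, Emcn, Egfl7 and Vwf. They were taken from a count table of 52636 genes by the Ensembl identifier that carries each symbol, all 9 were found, and all 9 were among the 15330 genes that passed the filter on low counts. Every animal carried both the S100β-GFP and the NG2-dsRed transgene, in which GFP follows the promoter of S100b and dsRed that of Cspg4, the gene of the proteoglycan NG2. FACS separated the cells by these fluorophores into NG2DsRed+/S100GFP+ cells, which the study calls perisynaptic Schwann cells (PSCs), the glia that cap the neuromuscular junction, S100GFP+ cells, which it takes as Schwann cells, and NG2DsRed+ cells, among which it counts pericytes. The table held 9 PSC, 8 S100GFP+ and 10 NG2DsRed+ libraries of the 12 labelled for each population, each made from the cells of a single mouse. No treatment was applied. The series' design counts 7 S100GFP+ libraries, 1 fewer than the table. Per its methods, the study judged some libraries failed on pairs plots and kept 7 of this population after taking these out. Which of the 8 S100GFP+ libraries in the table it left out is not given. The labels give an age from P15 to a last day that grows with the library number from 21 to 46, whereas the methods state P15 to P21 for all mice.

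Endothelial cells line blood and lymph vessels, and in skeletal muscle their capillaries run along the fibres with pericytes, which carry NG2, wrapped around them. VEGF signals to them through the receptor tyrosine kinases encoded by Flt1 and Kdr, and the angiopoietins through the one encoded by Tek, with which the related receptor encoded by Tie1 forms complexes. The other genes of the set encode proteins of the cell contacts or the surface of these cells or proteins that they secrete. None of the 3 sort gates selects an endothelial marker, and the set was read for the endothelial RNA in each population and its spread between mice.

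Promoters of 4 of the genes are shown because they stand for both patterns that the libraries gave, Flt1, Tie1 and Emcn for the pattern shared by most of the set and Tek for the gene that departed from it. Each stretch runs from 250 bases before to 50 bases after the start of transcription in RefSeq (GRCm38.p6), 5′ to 3′ on the strand of the gene, with AGGAAG, a core of the sites of ETS factors, or its reverse complement CTTCCT in capitals. They lie at chr5:147725962-147726261 (minus strand) for Flt1, chr4:118489800-118490099 (minus strand) for Tie1, chr3:137340828-137341127 (plus strand) for Emcn and chr4:94739039-94739338 (plus strand) for Tek.
Flt1: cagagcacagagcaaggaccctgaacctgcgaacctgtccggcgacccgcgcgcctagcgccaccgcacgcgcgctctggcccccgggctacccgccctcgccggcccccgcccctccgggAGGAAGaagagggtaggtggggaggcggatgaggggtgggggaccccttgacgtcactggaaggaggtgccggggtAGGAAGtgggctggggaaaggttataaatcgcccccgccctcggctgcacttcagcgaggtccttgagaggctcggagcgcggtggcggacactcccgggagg
Tie1: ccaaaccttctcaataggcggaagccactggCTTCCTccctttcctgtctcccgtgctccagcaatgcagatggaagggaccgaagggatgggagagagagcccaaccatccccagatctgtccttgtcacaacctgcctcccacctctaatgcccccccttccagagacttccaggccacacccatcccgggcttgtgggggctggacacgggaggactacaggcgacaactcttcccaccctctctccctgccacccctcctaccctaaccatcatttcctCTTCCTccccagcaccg
Emcn: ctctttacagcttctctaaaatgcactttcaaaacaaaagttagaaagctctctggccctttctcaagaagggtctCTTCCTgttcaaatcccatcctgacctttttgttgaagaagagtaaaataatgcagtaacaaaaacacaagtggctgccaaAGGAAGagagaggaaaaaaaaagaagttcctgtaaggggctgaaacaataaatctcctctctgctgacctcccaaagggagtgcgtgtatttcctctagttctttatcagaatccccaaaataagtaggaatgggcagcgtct
Tek: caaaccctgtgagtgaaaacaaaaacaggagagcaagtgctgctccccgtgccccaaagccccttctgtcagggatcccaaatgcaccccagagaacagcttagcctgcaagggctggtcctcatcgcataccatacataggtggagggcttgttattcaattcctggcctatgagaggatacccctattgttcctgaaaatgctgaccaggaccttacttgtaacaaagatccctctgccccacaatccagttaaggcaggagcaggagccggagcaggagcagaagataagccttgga
The letters AGGAAG stood on either strand 2 times each in the windows of Flt1, Tie1 and Emcn and nowhere in that of Tek. RefSeq windows were matched for 7 of the 9 genes. The core occurred in at least 1 window of 4 of these, the fourth being Egfl7, which has 3 windows. Of all 32851 promoters of the same length, each counted as 1 window, 35.4% held it. It was absent from the window of Tek and also from those of Kdr and Cldn5, which followed the pattern shared by most of the set. Its presence thus did not separate the 2 patterns. AGATAA, a core of GATA sites, occurred in the window of Tek alone among the 7, and in 11.2% of all promoters. Such matches describe the letters of these windows and no binding.

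Before the levels are compared, the libraries themselves need a description. Each library had 5221655 to 9592875 counts on genes, and the 3 genes Lars2, Gm23935 and Gm15564 took 3.64% to 40.0% of them. Cspg4 stood at 487 to 890 CPM (counts per 1000000, after TMM scaling) in NG2DsRed+ and at 503 to 965 CPM in PSC libraries, against 34.5 to 148 CPM in S100GFP+ libraries. The Schwann lineage factor Sox10 stood at 379 to 703 CPM in PSC libraries but at only 5.57 to 38.8 CPM in S100GFP+ libraries, and S100b at 57.0 to 566 CPM against 9.88 to 40.9 CPM. S100GFP+ libraries instead held 10734 to 23415 CPM over 7 fibroblast markers and 1092 to 10358 CPM over 8 macrophage and leukocyte markers. In NG2DsRed+ libraries 12 markers of pericytes and smooth muscle summed to between 7498 and 16279 CPM. Within the S100GFP+ population libraries 14, 17 and 22 stood apart. They had counts on 462, 777 and 1261 olfactory receptor genes, against 27 to 214 in every other library, more of the β-globin RNA Hbb-bs (8766 to 56040 CPM, against 10.7 to 8157 CPM in the other 5) and less of the leukocyte gene Ptprc (85.7 to 131 CPM, against 265 to 541 CPM). Results that involve S100GFP+ cells are therefore given with and without these 3 libraries.

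In NG2DsRed+ cells the whole set was high, and in PSCs it was low. All 9 genes were past the threshold (adjusted p under 0.05) and lower in PSCs than in NG2DsRed+ cells, where 23.1% of all genes tested were lower and 44.0% differed in either direction. Log2 fold changes lay between -3.27 and -2.46, with a median of -3.02 beside 0.02 over all genes. For 8 of the 9 genes no PSC library reached the lowest NG2DsRed+ library, an arrangement found for 8.83% of all genes (5.08% in the opposite direction). As these are bulk samples, fewer endothelial cells and less of each RNA per cell cannot be told apart, here and in what follows.

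The VEGF receptors had high levels in NG2DsRed+ cells. Flt1 (ENSMUSG00000029648, chr5:147561604-147726011, minus strand), which binds VEGF with high affinity and signals weakly, ranged in NG2DsRed+ libraries from 294 to 755 CPM (median 519.8) and in PSC libraries from 15.8 to 93.5 CPM (median 63.2). Every NG2DsRed+ library was thus above every PSC library. The means were 502 ± 148 CPM (SD, n = 10) and 61.8 ± 23.4 CPM (SD, n = 9), 8.11-fold higher in NG2DsRed+ cells, with a log2 fold change of -3.02 (SE 0.55, adjusted p = 4.61e-05 by edgeR's quasi-likelihood test). Kdr (ENSMUSG00000062960, chr5:75932827-75978458, minus strand), the receptor that carries most VEGF signalling in the endothelium, ranged from 142 to 580.4 CPM (median 360.4) in NG2DsRed+ and from 7.71 to 92.7 CPM (median 37.5) in PSC libraries. Its groups did not overlap either, and the fold was 8.39.

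The angiopoietin receptor pair behaved in the same way between these 2 populations. Tek (ENSMUSG00000006386, chr4:94739289-94874976, plus strand) ranged from 80.1 to 171 CPM (median 155) in NG2DsRed+ and from 7.68 to 37.5 CPM (median 19.9) in PSC libraries. The groups were separate, with a log2 fold change of -2.85 (SE 0.27, adjusted p = 6.44e-10, edgeR), and this SE was the smallest of the 9. Tie1 (ENSMUSG00000033191, chr4:118471191-118490061, minus strand) ranged from 76.2 to 270.3 CPM (median 199.7) in NG2DsRed+ and from 1.23 to 79.8 CPM (median 21.3) in PSC libraries. It was the gene whose groups overlapped, since PSC library 31 was above NG2DsRed+ library 28, while 9 of 10 NG2DsRed+ libraries were above all PSC libraries (log2 fold change -2.78, SE 0.72, adjusted p = 0.00213, edgeR).

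Genes of the contacts and the surface of endothelial cells came next. Pecam1 (ENSMUSG00000020717, chr11:106654217-106750628, minus strand), an adhesion molecule at the borders between endothelial cells that leukocytes and platelets also carry, ranged from 196 to 629 CPM (median 483) in NG2DsRed+ and from 24.0 to 128 CPM (median 33.9) in PSC libraries. Cldn5 (ENSMUSG00000041378, chr16:18776847-18778262, plus strand), a claudin of their tight junctions, ranged from 79.4 to 308 CPM (median 212) and from 10.0 to 62.6 CPM (median 14.9). Emcn (ENSMUSG00000054690, chr3:137341067-137432185, plus strand), a sialomucin of capillaries and veins, ranged from 72.1 to 192 CPM (median 139.8) and from 3.15 to 51.2 CPM (median 15.5). In each of these genes the NG2DsRed+ libraries were all above the PSC libraries, by 8.86-fold, 9.65-fold and 7.05-fold. Cldn5 had the lowest log2 fold change of the set, -3.27 (SE 0.67, adjusted p = 0.00021, edgeR).

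The secreted proteins complete the set. Egfl7 (ENSMUSG00000026921, chr2:26580014-26593120, plus strand), which endothelial cells deposit in the matrix around them, ranged from 120.3 to 275 CPM (median 211) in NG2DsRed+ and from 18.4 to 65.9 CPM (median 34.7) in PSC libraries. It had the smallest difference, 5.49-fold (log2 fold change -2.46, SE 0.57, adjusted p = 0.000782, edgeR), still with no overlap. Its exons share 64 bases with those of Agpat2 on the opposite strand, which had 3090 counts over all libraries, and whether strand was used in counting is not stated. Vwf (ENSMUSG00000001930, chr6:125546774-125686679, plus strand), the adhesive protein that endothelial cells and megakaryocytes store in granules, ranged from 56.4 to 191 CPM (median 124) and from 1.05 to 31.8 CPM (median 9.21). All NG2DsRed+ libraries were above all PSC libraries, and the fold was 9.12.

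**Figure D1:**
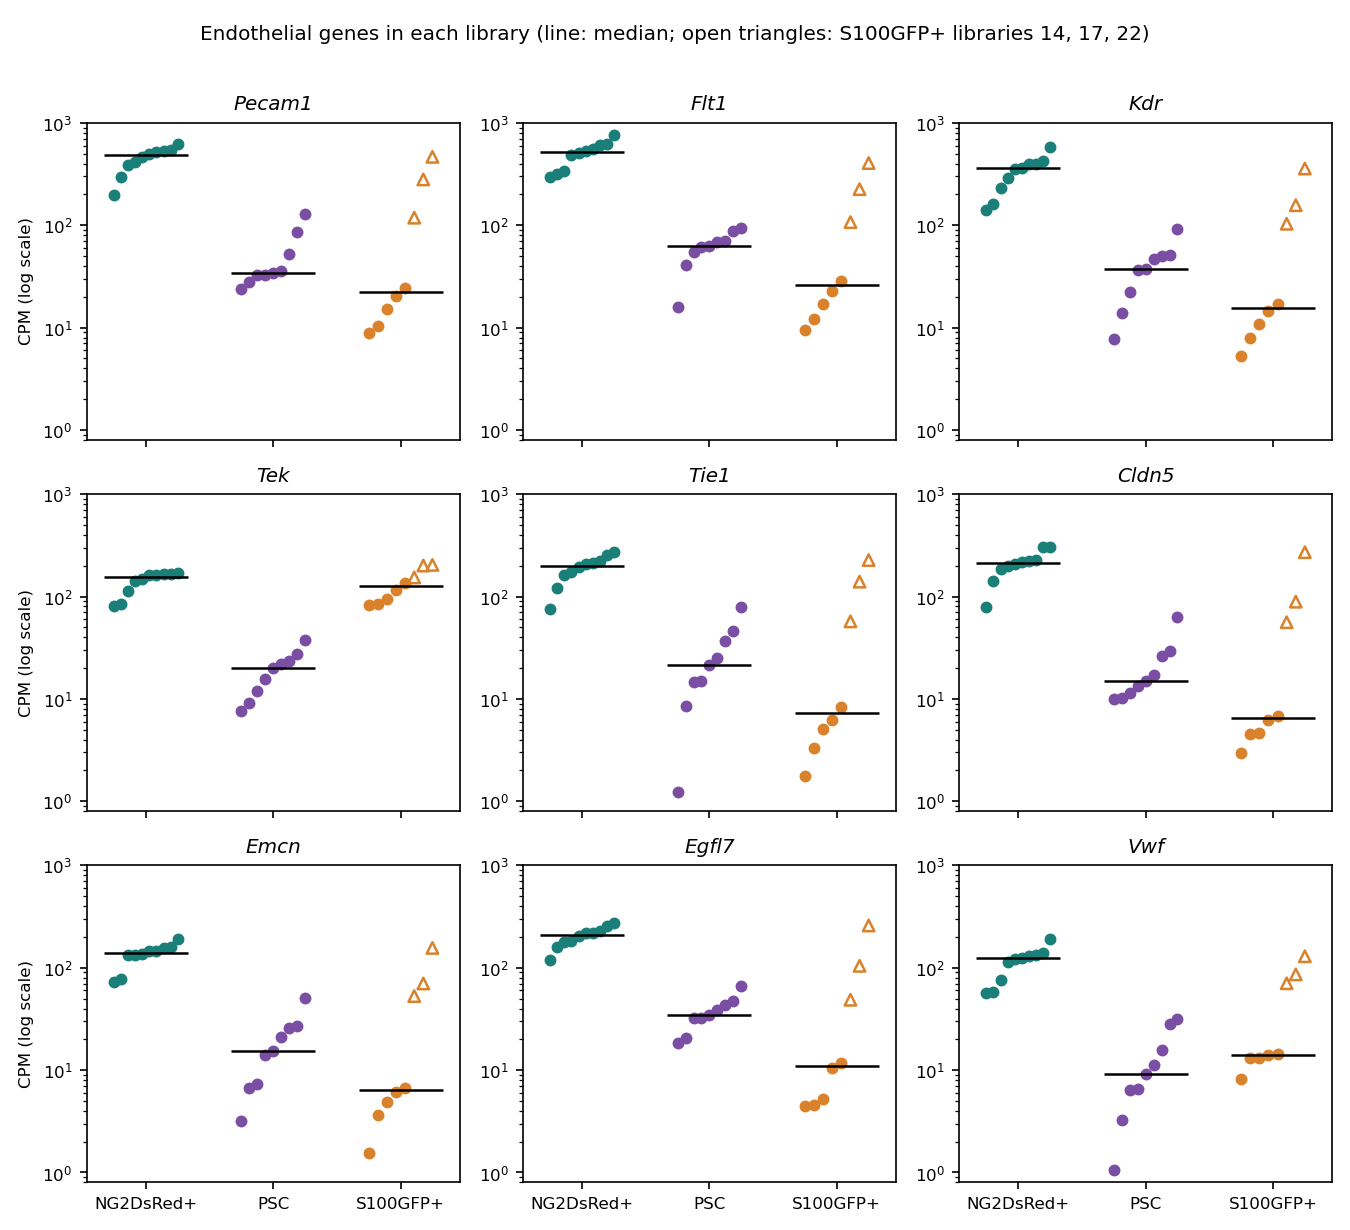
CPM of each of the 9 endothelial genes on a log axis, with 1 point per library in 10 NG2DsRed+, 9 PSC (NG2DsRed+/S100GFP+) and 8 S100GFP+ libraries, a black line at the median of each group and open triangles for S100GFP+ libraries 14, 17 and 22. PSC points lie below NG2DsRed+ points for all genes except at the edge for Tie1, and S100GFP+ libraries 14, 17 and 22 lie above the other 5 for every gene, by the smallest ratio, 1.82, for Tek.

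PSC libraries differed among themselves in how much of the set they held. The 9 genes together summed to between 125 and 638 CPM in PSC libraries (median 259.7), and to between 1142 and 3220.4 CPM in NG2DsRed+ libraries (median 2428). PSC library 31 had the highest level of 8 of the 9 genes, and library 18 the lowest of 6. For Pecam1 this meant 128 CPM in library 31 and 24.0 CPM in library 18, and for Tie1 79.8 CPM and 1.23 CPM, the latter from 7 counts. Library 18 had counts on only 14616 genes, against 20203 to 22533 in the other PSC libraries. It also had the lowest sample quality weight of all libraries in limma-voom, 0.084, so its low values may not describe the spread between mice. All 9 genes had counts in every library of the 3 populations. In NG2DsRed+ cells library 15 had the highest level of 6 genes and library 28 the lowest of 6.

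Among S100GFP+ cells libraries 14, 17 and 22 were above the other 5 for all 9 genes, by a far smaller ratio for Tek than for the others. Pecam1 stood at 8.88 CPM in library 27, 10.4 in library 33, 15.2 in library 1, 20.5 in library 11 and 24.2 in library 3, but at 119 CPM in library 14, 280.4 in library 22 and 466.1 in library 17. Flt1 followed the same order of the high libraries with 107, 225 and 405 CPM, against 9.54 to 28.7 CPM in the other 5. Kdr, with 103, 157 and 358 CPM against 5.33 to 16.9 CPM, did so too. Between the mean of libraries 14, 17 and 22 and that of the other 5 the ratio was 13.6 for Flt1, 18.2 for Pecam1, 18.7 for Kdr, 19.0 for Egfl7, 20.4 for Emcn, 27.6 for Cldn5 and 28.7 for Tie1. It was lower for Vwf, at 7.62. Library 17 had the highest level of all 9 genes.

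Tek followed this split with a smaller ratio, from a higher level in the other 5 libraries. Its mean was 102 CPM in these 5 and 186 CPM in libraries 14, 17 and 22. In the same order Vwf had 12.5 and 95.5 CPM and Emcn 4.57 and 93.2 CPM, a step in CPM similar to that of Tek. The remaining genes had larger steps, from 7.24 and 137 CPM for Egfl7 to 15.9 and 288 CPM for Pecam1. Tek stood at 81.7 CPM in library 3, 84.2 in library 11, 94.3 in library 33, 115 in library 1 and 137 in library 27. It stood at 154, 201 and 204 CPM in libraries 22, 14 and 17, where the other genes of the set summed to 1152.5, 615 and 2272 CPM. The ratio of the means of Tek was 1.82. In the 5 other libraries Tek held 42.6% to 70.8% of the summed CPM of the set, in libraries 14, 17 and 22 it held 8.22% to 24.6%, in PSC libraries 3.50% to 17.6% and in NG2DsRed+ libraries 4.84% to 7.44%. Set against Cdh5, the gene of VE-cadherin, which is no member of the set, Tek had 9.60% to 20.1% of its CPM in NG2DsRed+ libraries and 6.21% to 55.3% in PSC libraries, while in the 5 other S100GFP+ libraries it exceeded Cdh5, with 184% to 1574%. Tek is also known from hematopoietic stem cells and from a subset of monocytes. Ptprc, which marks leukocytes, was higher in the 5 libraries with little of the other endothelial RNAs (265 to 541 CPM) than in libraries 14, 17 and 22 (85.7 to 131 CPM), where Tek itself was higher, and 7 fibroblast markers summed to 10734 to 17552 CPM in the first and 15194 to 23415 CPM in the second. Their part in the level of Tek was not tested.

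**Figure D2:**
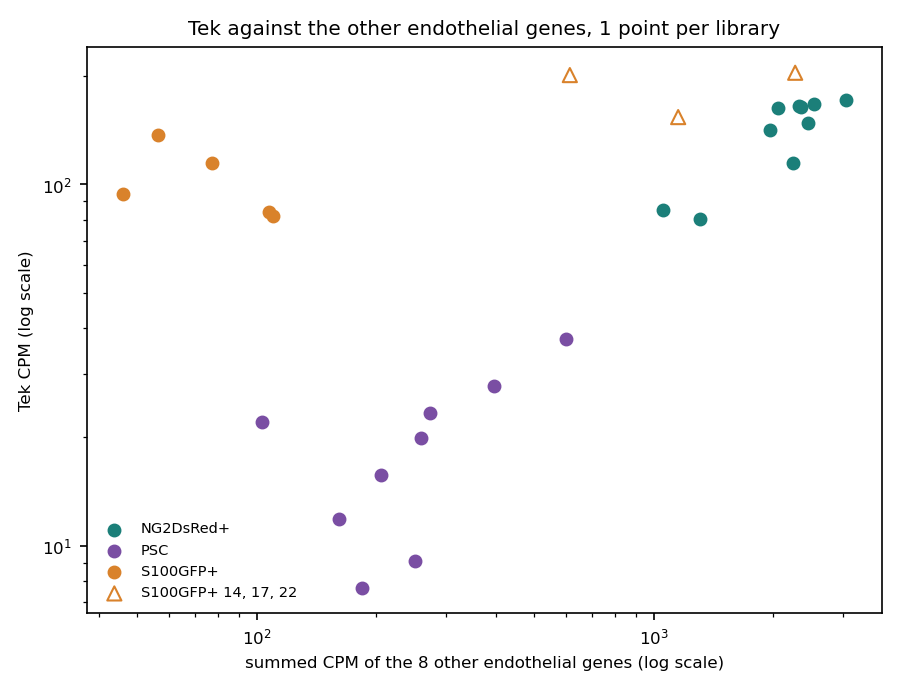
Tek CPM against the summed CPM of the 8 other endothelial genes in each library, both on log axes, with open triangles for S100GFP+ libraries 14, 17 and 22. The 5 filled S100GFP+ points hold 81.7 to 137 CPM of Tek at 45.9 to 110 CPM of the other genes, above all PSC libraries, which reach 37.5 CPM of Tek at 103 to 600.3 CPM of the other genes.

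Between NG2DsRed+ and S100GFP+ cells 7 of the 9 genes were higher in NG2DsRed+ cells, where 15.2% of all genes were higher and 33.3% differed. The 7 had log2 fold changes from 1.40 for Vwf (SE 0.53, adjusted p = 0.0408, edgeR) to 2.28 for Flt1 (SE 0.56, adjusted p = 0.00186, edgeR). All 9 genes overlapped between these populations. Library 17 lay within the range of the NG2DsRed+ libraries for 8 of the genes and above it for Tek. Of all genes, 4.38% were without overlap and higher in NG2DsRed+ cells and 7.21% without overlap and lower. Tie1 had a log2 fold change of 1.76 with an adjusted p of 0.0593 (edgeR). Tek had 140 ± 34.6 CPM (SD, n = 10) in NG2DsRed+ and 134 ± 49.0 CPM (SD, n = 8) in S100GFP+ cells, a log2 fold change of 0.07 (95% interval -0.45 to 0.59, adjusted p = 0.879, edgeR). No difference was detected, and the interval does not exclude one of up to 0.59 on the log2 scale.

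Without libraries 14, 17 and 22 the same comparison gave much larger values, a shift whose direction follows from leaving out the highest S100GFP+ libraries. All genes except Tek, 8 of 9, were then higher in NG2DsRed+ cells, where 16.9% of all genes were higher and 34.1% differed. Their log2 fold changes lay between 3.20 for Vwf and 5.38 for Cldn5, and the other 6 fell between 4.80 and 5.24. Tek stayed near no difference, at 0.47 (95% interval -0.09 to 1.03, adjusted p = 0.203, edgeR). Leaving out library 17 alone raised the log2 fold changes of Cldn5 to 3.11, of Flt1 to 3.06, of Egfl7 to 2.92, of Kdr to 2.90, of Pecam1 to 2.72, of Emcn to 2.70 and of Tie1 to 2.59 (adjusted p = 0.00556, edgeR). Vwf was past the threshold in 15 of the 27 fits that left out a single library.

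Between PSCs and S100GFP+ cells the answer depended on the same 3 libraries. With all libraries 2 of 9 genes were past the threshold, both lower in PSCs, against 24.1% of all genes lower, 22.9% higher and 47.0% different. Tek was lower in each PSC library than in each S100GFP+ library (log2 fold change -2.78, SE 0.27, adjusted p = 1.2e-09, edgeR), with no overlap, as for 10.3% of all genes. Vwf had a log2 fold change of -1.79 (SE 0.54, adjusted p = 0.00714, edgeR), with overlap. The other 7 genes had values from -1.34 to -0.59 with adjusted p from 0.092 to 0.415 (edgeR), and for these 2 or 3 S100GFP+ libraries lay above the highest PSC library. With limma-voom and sample quality weights these 7 values turned positive, from 0.49 to 1.38, with Egfl7 past the threshold and higher in PSCs (1.38, adjusted p = 0.0171), and Vwf had -1.04 with an adjusted p of 0.0733. The 3 comparisons share their libraries pairwise and are not independent of each other.

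Without libraries 14, 17 and 22 these 7 genes were higher in PSCs than in S100GFP+ cells, where 22.3% of all genes were higher and 42.4% differed. The libraries left out were the highest S100GFP+ libraries for the set, so the direction of this shift follows from the choice. The adjusted p values describe the 5 remaining S100GFP+ libraries and are no separate support. Egfl7 was 5.23-fold higher (log2 fold change 2.39, SE 0.30, adjusted p = 2.73e-07, edgeR) and Tie1 5.66-fold (2.50, SE 0.57, adjusted p = 0.00081). Cldn5, Emcn, Kdr, Flt1 and Pecam1 had log2 fold changes of 2.14, 2.08, 1.89, 1.82 and 1.71. Tek remained lower in PSCs, by 5.12-fold (log2 fold change -2.35, SE 0.27, adjusted p = 4.23e-08, edgeR). Vwf had a log2 fold change of 0.05 (95% interval -0.90 to 0.99, adjusted p = 0.947, edgeR). It stood at 8.21 to 14.2 CPM in these 5 libraries. A list of 6 platelet and megakaryocyte markers summed to 42.9 to 80.4 CPM there, 26.3 to 38.5 CPM in libraries 14, 17 and 22 and 2.28 to 12.7 CPM in PSCs. In S100GFP+ libraries Pf4, a platelet chemokine, was the largest part of that sum on average. Its means were 51.0 CPM in the 5 and 16.2 CPM in the 3 libraries, and Gp1bb had 4.41 and 3.26 CPM. In PSCs Pf4 had a mean of 1.42 CPM and Gp1bb of 3.90 CPM. The other 4 were lower on average in the 5 than in the 3 libraries, Ppbp with 0.60 and 2.31 CPM, Itga2b with 3.84 and 5.66 CPM, Gp9 with 1.01 and 1.94 CPM and Gp6 with 0.035 and 1.53 CPM. The macrophage and leukocyte markers, like Pf4, were higher in the 5 libraries, with 5124 to 10358 CPM against 1092 to 3532 CPM in the 3. The part of the platelet markers in the level of Vwf was not tested. The comparison of PSCs with NG2DsRed+ cells, which uses no S100GFP+ library as a member of either group, gave log2 fold changes of -3.23 to -2.42 in the fit without these libraries, with all 9 genes past the threshold, against 43.9% of all genes.

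**Figure D3:**
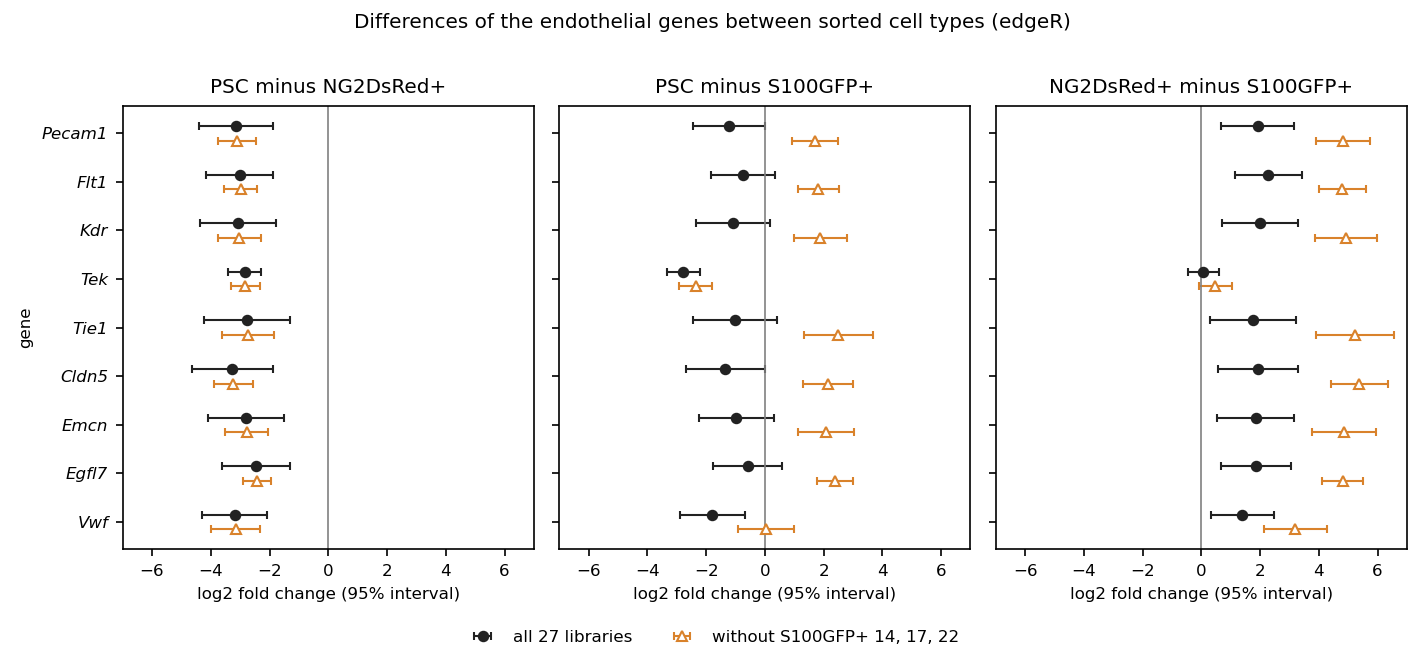
Log2 fold changes of the 9 genes between the 3 populations with 95% intervals, from edgeR fits of all 27 libraries (filled circles) and without S100GFP+ libraries 14, 17 and 22 (open triangles). In the middle panel 7 genes move from the left of 0 to the right when these libraries are left out, while Tek stays on the left and Vwf moves to 0.

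Levels of different genes can be compared only per length of exon. On this scale Cldn5 led the set in NG2DsRed+ cells with a mean of 148 CPM per kilobase of exon, followed by Pecam1 with 71.9 and Egfl7 with 56.9. Tie1, Flt1 and Kdr were neighbours at 38.5, 37.2 and 37.0, closer than the spread of each between libraries, and Tek (29.7), Emcn (24.9) and Vwf (7.13) closed the order. In PSCs the order was nearly the same at a lower level, from Cldn5 with 15.3 through Egfl7 with 10.4 and Pecam1 with 8.11 to Vwf with 0.78. In S100GFP+ cells without libraries 14, 17 and 22 Tek headed the order with 21.7 CPM per kilobase, ahead of Cldn5 with 3.55, whereas in libraries 14, 17 and 22 it had 39.5, behind Cldn5 (98.0) and Pecam1 (46.3).

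Other endothelial genes were read from lists of known markers, and names were taken from the 4 with the highest mean in each list, not all of which are given. Clec14a, Cd34, Lmo2, Fli1, Angpt1, Pdgfrb, Abcc9, Kcnj8, Mcam, Gp9 and Gp6 are named outside that rule, after their values were seen. Of 18 further junction and surface genes 16 were lower in PSCs than in NG2DsRed+ cells, 1 was higher and 1 did not pass the test (median log2 fold change -2.74), where 23.1% of all genes were lower and 20.9% higher. Cdh5, the cadherin of endothelial adherens junctions, had 921 ± 152 CPM (SD, n = 10) in NG2DsRed+ and 130 ± 60.05 CPM (SD, n = 9) in PSC libraries (log2 fold change -2.83, adjusted p = 0.000395, edgeR). Ptprb, the phosphatase that acts on Tek, had means of 814 and 93.1 CPM, and the lectin-like receptor Cd93 of 642 and 71.3 CPM, both past the threshold. Clec14a, another lectin-like receptor of endothelium, was the gene that was higher in PSCs, with 160.1 to 248 CPM against 19.6 to 56.3 CPM in NG2DsRed+ libraries (log2 fold change 2.38, SE 0.41, adjusted p = 2.18e-05, edgeR) and 1.74 to 45.2 CPM in S100GFP+ libraries. Its lowest PSC library was thus far above the highest library of the other populations. Between NG2DsRed+ and S100GFP+ cells 15 of the 18 were higher in NG2DsRed+ cells and 1, Cd34, was lower, where 15.2% of all genes were higher and 18.1% lower. Without libraries 14, 17 and 22 the counts were 17 and 1, beside 16.9% and 17.2% of all genes. Cd34, which fibroblast progenitors also carry, stood at 379 to 871 CPM in S100GFP+ libraries and 213 to 369 CPM in NG2DsRed+ libraries.

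Transcription factors of the endothelium were also lower in PSCs. All 11 tested were lower than in NG2DsRed+ cells (median log2 fold change -2.87), against 23.1% of all genes. Ets1 stood at 234 CPM in NG2DsRed+ and 89.6 CPM in PSC libraries on average (log2 fold change -1.39, adjusted p = 0.00225, edgeR), and Sox7, a factor of early vessel growth, at 116 and 16.1 CPM. Against S100GFP+ cells 9 of the 11 were higher in NG2DsRed+ cells and Lmo2 was lower, where 15.2% of all genes were higher and 18.1% lower. Lmo2 had 27.3 to 46.8 CPM in all S100GFP+ libraries and 3.50 to 13.7 CPM in NG2DsRed+ libraries. Lmo2 is a cofactor shared by blood and endothelial cells. In PSCs 1 of the 11, Ets1, was higher than in S100GFP+ cells and 2, Fli1 and Lmo2, were lower, no larger shares than the 22.9% higher and 24.1% lower among all genes. Without libraries 14, 17 and 22 the counts were 7 and 2, beside 22.3% and 20.1% of all genes.

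Ligands and co-receptors of the same pathways came next. Of 10 tested genes 9 were lower in PSCs than in NG2DsRed+ cells (median log2 fold change -2.09) and 7 were lower in PSCs than in S100GFP+ cells, also without libraries 14, 17 and 22, where 23.1%, 24.1% and 20.1% of all genes were lower. Vegfa, the main ligand of Kdr and Flt1, was highest in S100GFP+ libraries, with 59.0 to 95.8 CPM, against 12.4 to 30.1 CPM in NG2DsRed+ and 2.22 to 15.2 CPM in PSC libraries, and it did not separate libraries 14, 17 and 22 (59.6 to 95.6 CPM) from the other 5. Angpt1, the agonist of Tek, likewise stood at 10.7 to 39.7 CPM in S100GFP+ libraries, 1.23 to 9.87 CPM in NG2DsRed+ libraries and at most 2.11 CPM in PSC libraries. Angpt2, the context-dependent antagonist of Tek, was highest in NG2DsRed+ cells, with 72.8 ± 25.6 CPM (SD, n = 10) against 24.9 ± 7.29 CPM (SD, n = 9) in PSCs (log2 fold change -1.55, adjusted p = 2.42e-05, edgeR). Nrp1, a co-receptor of VEGF, had 470.2, 59.6 and 193 CPM on average in NG2DsRed+, PSC and S100GFP+ libraries.

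Markers of vessel types were read in the same way. All 9 arterial genes were lower in PSCs than in NG2DsRed+ cells, against 23.1% of all genes, and higher in NG2DsRed+ than in S100GFP+ cells, against 15.2%. The connexin gene Gja4 had the lowest log2 fold change of them, -4.49 (SE 0.48, adjusted p = 7.99e-09, edgeR), with 106 to 241 CPM in NG2DsRed+ and 3.63 to 15.3 CPM in PSC libraries, and Dll4, a Notch ligand, had -3.22 (adjusted p = 0.000501). Of 10 genes of capillaries and fatty acid uptake 9 were lower in PSCs than in NG2DsRed+ cells, among them Gpihbp1, the anchor of lipoprotein lipase (402 and 78.8 CPM on average), and the water channel gene Aqp1 (1111 and 151 CPM). Rgcc, with 157 and 226 CPM, did not pass the test. Against S100GFP+ cells 5 of these 10 were higher in NG2DsRed+ cells with all libraries and 10 without libraries 14, 17 and 22. The shares of all genes were 15.2% and 16.9%. Of 7 venous genes 1, Ephb4, was lower in PSCs than in NG2DsRed+ cells, a share below the 23.1% of all genes. Nr2f2, which sets venous identity and is also used by mesenchymal cells, had 179 and 176 CPM on average (log2 fold change -0.02, adjusted p = 0.93, edgeR), and Ackr1 was found mainly in S100GFP+ libraries, with 20.6 to 81.5 CPM against at most 11.0 CPM elsewhere. The 3 lymphatic genes tested had adjusted p from 0.0751 to 0.772 in the 3 comparisons (edgeR), and without libraries 14, 17 and 22 Prox1 was higher in PSCs than in S100GFP+ cells (log2 fold change 1.75, adjusted p = 0.044), with 30.4 CPM in PSC library 4 and 0 to 6.84 CPM in the other 8. Of 6 genes of barrier endothelium 3 were lower and 1 higher in PSCs than in NG2DsRed+ cells, where 23.1% of all genes were lower and 20.9% higher. The drug exporter gene Abcb1a had 8.62 CPM against 78.3 CPM, and the lactate carrier gene Slc16a1 63.8 CPM against 27.1 CPM.

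**Figure D4:**
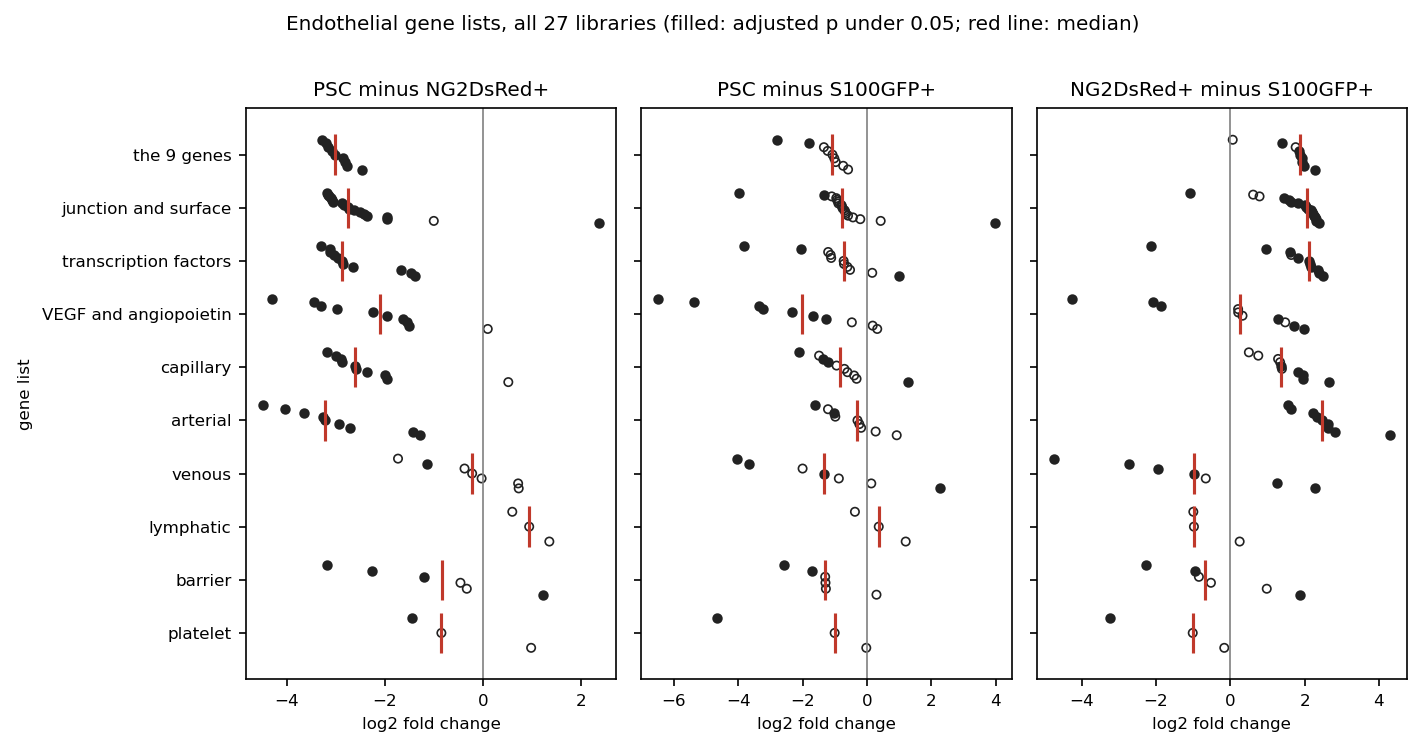
Log2 fold change of each tested gene of 10 lists between the 3 populations, with all 27 libraries, filled where the adjusted p was under 0.05 (edgeR) and with a red line at the median of each list. In the left panel the medians of the 9 genes, the junction, factor, capillary and arterial lists lie between -3.22 and -2.60, and that of the venous list at -0.22.

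The genes of the pericyte list moved beside the set. In PSCs 10 of 12 were lower than in NG2DsRed+ cells (median log2 fold change -3.54), where 23.1% of all genes were lower. Rgs5 had 45.2 to 133 CPM against 2775 to 7921 CPM. The 2 that did not pass the test were Cspg4, whose promoter drives the sorted dsRed, and Mcam. These made up most of the 1084 to 1784 CPM to which the list summed in PSC libraries, with means of 689 and 306 CPM. The defining pericyte genes Pdgfrb, Abcc9 and Kcnj8 reached 38.9, 17.3 and 18.3 CPM at most in PSC libraries. In S100GFP+ libraries 14, 17 and 22 the list summed to 1029 to 1741 CPM, against 259.9 to 930.2 CPM in the other 5. Globin RNAs were likewise higher in these 3 libraries, 5 erythroid genes summing to 21458 to 131270 CPM, but in the other 5 they ranged from 24.9 to 25046 CPM, and library 3, with 8157 CPM of Hbb-bs, had 24.2 CPM of Pecam1. The part of these cells in the levels of the endothelial set was not tested.

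Outside the lists, genes were ranked by how closely their levels followed the set within the populations. The measure was the Pearson correlation over 27 libraries of log2 CPM, centred in each population, with the mean of the 9 genes. For that mean each of the 9 was centred and also scaled to the same spread in each population. The 8 highest were Prkch (0.91), Ralgapa1 (0.91), Impdh1 (0.90), Rnd1 (0.90), Elk4 (0.89), Cd36 (0.89), Fryl (0.88) and Apol10b (0.88), while the members themselves had 0.70 for Egfl7 up to 0.88 for Vwf. The points share depth and the split of the S100GFP+ libraries, so the values are descriptions. Members and the 8 were alike correlated without scaling. Each member is part of that mean, and the 8 are the highest of all tested genes outside the lists. The values of the members therefore cannot be ranked against those of the 8. Cd36, a carrier of fatty acids into capillary endothelium and other cells, had 639 to 2180.3 CPM in NG2DsRed+, 55.9 to 391.6 CPM in PSC, 393 to 1544 CPM in S100GFP+ libraries 14, 17 and 22 and 162 to 272 CPM in the other S100GFP+ libraries. Prkch, a protein kinase C, had 21.4 to 123 CPM, 0.70 to 27.3 CPM, 27.9 to 92.5 CPM and 7.32 to 12.6 CPM in the same order.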

How the data were processed

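RNA of FACS-isolated cells was made into libraries with the SMART-Seq v4 kit. Per the study's methods and the submitters' processing notes, reads were trimmed, HISAT2 aligned them to GRCm38, HTSeq counted them per gene, and the authors tested with DESeq2. Versions and strand settings: not given in the sources used here. The deposited values are raw counts per Ensembl gene for 27 libraries of the 36 labelled, and the other 9 were not analysed here. No column was left unused (0). Each library is a single mouse, and no pair of libraries held identical values (0 pairs, smallest chi-square per degree of freedom within a population 8.10).

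Groups came from the cell type label. Of 52636 genes, 15330 passed filterByExpr (minimum count 10). Counts were scaled by TMM and tested with edgeR 4.0.16 (R 4.3.3) by the quasi-likelihood test in 1 fit of the 3 populations, with Benjamini-Hochberg adjustment over all genes tested and a threshold of 0.05. The SE is the absolute log2 fold change over the square root of F. CPM are counts per 1000000 after TMM. GENCODE M21 matched 52403 identifiers (99.56%) and gave positions and exon lengths. RefSeq (GRCm38.p6) gave promoters. The scripts were tested on simulated data. By rule, named genes came from the 9, the 8 most alike and the 4 of highest mean CPM in each list. Not all of these 4 are named. Cspg4, S100b, Lars2, Gm23935 and Gm15564 were named as checks. Others were named after their values were seen. The members and lists were chosen with earlier results of these data known. Depth was 5221655 to 9592875 counts, and PCR copies are not independent molecules. Alternatives were DESeq2 1.42.0 size factors and Wald test, no filter, only the groups compared, limma 3.58.1 voom with quality weights, a term for the share of Lars2, Gm23935 and Gm15564, and leaving out each library in turn or S100GFP+ libraries 14, 17 and 22. Leaving these 3 out of the list counts was added after seeing the data. Python 3.11.15, pandas 2.3.3 and matplotlib 3.10.9 were used for tables and figures.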

Additional observations from a re-analysis of the deposited data

Results flagged for a closer look

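In 27 groups of libraries, 9 genes in 3 populations, the highest and the lowest library were compared with the rest by Dixon's gap. Chance passes this gap in about 1 group in 20 where groups are independent and values normally distributed. Here CPM were not transformed and the 9 genes share their libraries, so that rate need not hold. A single library stood far above the others in 6 groups. S100GFP+ library 17 did so for Kdr (358.06 CPM, next library 157.0 CPM), Cldn5 (271.03 CPM, next 89.0 CPM), Emcn (156.32 CPM, next 70.3 CPM) and Egfl7 (258.96 CPM, next 104.5 CPM). PSC library 31 did so for Cldn5 (62.646 CPM, next 29.0 CPM) and Emcn (51.204 CPM, next 27.1 CPM).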

How the results depend on the processing

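The count of endothelial genes past the threshold between PSCs and NG2DsRed+ cells was 9 in every fit that left out a library, and between NG2DsRed+ and S100GFP+ cells it lay between 6 and 8. Between PSCs and S100GFP+ cells it was 2, with a range of 2 to 4 when each library was left out (4 without S100GFP+ replicate 27 and 4 without PSC replicate 31), 1 with the share of Lars2, Gm23935 and Gm15564 as a term and 8 without S100GFP+ libraries 14, 17 and 22. In that comparison log2 fold changes changed sign with limma-voom for Pecam1 (0.49), Flt1 (0.96), Kdr (0.76), Tie1 (1.12), Cldn5 (0.84), Emcn (0.81) and Egfl7 (1.38). They did so without the 3 libraries for Pecam1 (1.71), Flt1 (1.82), Kdr (1.89), Tie1 (2.50), Cldn5 (2.14), Emcn (2.08), Egfl7 (2.39) and Vwf (0.046). Leaving out each library in turn gave -0.92 to 0.034 for Flt1 and -0.77 to 0.46 for Egfl7, both positive without S100GFP+ replicate 17. Tek between NG2DsRed+ and S100GFP+ cells lay between -0.040 and 0.18, below 0 without S100GFP+ replicate 3 or 11. Between PSCs and NG2DsRed+ cells the term for the share of Lars2, Gm23935 and Gm15564 moved Cldn5 from -3.27 to -2.66 and Kdr from -3.07 to -2.47. It moved Tie1 from -2.78 to -2.16 (adjusted p = 0.0103, edgeR). The median share was 17.8% in PSC and 30.4% in NG2DsRed+ libraries. The cause of these shifts was not tested. Without a filter on low counts 44705 genes were tested, of which 16556 rather than 7198 were past the threshold between PSCs and S100GFP+ cells and 10586 rather than 5099 between NG2DsRed+ and S100GFP+ cells. No paired analysis was possible because each library number occurs once and the mouse behind a library is not given in the labels, so that whether populations share mice is not known.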

Other observations

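PSC library 4 had the highest level among PSC libraries of all 5 genes of the lymphatic list and of Flt4. Mmrn1 had 799 counts (63.0 CPM) and the lymphatic chemokine gene Ccl21a 47 counts (3.71 CPM) in it, with 0 counts of each in the other 8 PSC libraries. Lyve1, a hyaluronan receptor, stood at 65.8 CPM (next PSC library 2.72 CPM), Prox1, the factor of lymphatic identity, at 30.4 CPM (next 6.84 CPM), and Flt4, the receptor of VEGF-C, at 29.8 CPM (next 7.87 CPM). Reln was less apart, at 54.8 CPM with 36.3 CPM in the next PSC library. NG2DsRed+ library 7 had 128 counts of Mmrn1 (20.1 CPM) and the highest Prox1 of its population (9.60 CPM).

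Selp, the gene of P-selectin, which veins and platelets hold, stood at 38.2 CPM in PSC library 31 (next PSC library 4.28 CPM), and at 69.8 and 67.8 CPM in S100GFP+ libraries 17 and 14, against 10.0 CPM in S100GFP+ library 22 and at most 10.5 CPM in NG2DsRed+ libraries. Flt4, Ccl21a and Selp were named after values were seen.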
